A study of Mus musculus with 15 samples.

Results

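The antigen presentation genes described here are 10 genes of the major histocompatibility complex (MHC) pathways, of 55421 genes listed in the count files. They were taken by name and then split by pathway. The 5 class I members were H2-K1, H2-D1, B2m, Tap1 and Psmb8, and the 5 class II members were H2-Aa, H2-Ab1, H2-Eb1, Cd74 and Ciita. Each was matched to 1 Ensembl identifier and each was counted in all 15 libraries. The question was whether the class I and class II genes differ in how they vary between Tmem135 genotypes.

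RNA was sequenced from posterior eyecups, which hold the retinal pigment epithelium (RPE), choroid and sclera after the neural retina is taken off. The mice were 2.5 months old, of both sexes and on the C57BL/6J background. There were 4 WT mice, 6 mice with 1 mutant allele (Tmem135 FUN025/+) and 5 mice with mutant alleles only (Tmem135 FUN025/FUN025). FUN025 is a mutation of Tmem135, a gene for a transmembrane protein linked to mitochondria, and mutant mice carry it in every cell. The libraries are called by genotype and replicate number, for example WT 3, and the sex of each mouse was not labelled. By the authors' tally the sexes were equal in number in WT. Males outnumbered females in FUN025/+, and females outnumbered males in FUN025/FUN025.

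Class I molecules are carried by nearly all nucleated cells and show peptides made inside the cell to cytotoxic T cells. H2-K1 and H2-D1 encode their heavy chains and B2m their invariant light chain, while Psmb8 is a catalytic subunit of the immunoproteasome, which cuts the peptides, and Tap1 is one chain of the transporter that brings the peptides into the endoplasmic reticulum. Class II molecules are mostly limited to macrophages, dendritic cells and B cells and show peptides from engulfed material to helper T cells. H2-Aa and H2-Ab1 encode the chains of one class II molecule and H2-Eb1 a further beta chain, Cd74 encodes the invariant chain that escorts them, and Ciita encodes the transactivator that their transcription depends on. In the posterior eye, class II is known from macrophages and dendritic cells of the choroid.

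Promoters of both classes hold a Y box, a CCAAT element bound by NF-Y. The RefSeq windows of 150 bases before the transcription start (GRCm38.p6) were searched for the Y box core GATTGG and its reverse complement CCAATC. A window was held for 7 of the 10 members, and 5 of these 7 had a match. They are shown because the element is one that class I and class II genes share. Capitals mark the match, and each window is written 5′ to 3′ on the strand of its gene. Only 30 bases are shown for H2-D1, since its window lies in an exon of another annotated transcript.
H2-K1, chr17:34000334-34000483, minus strand: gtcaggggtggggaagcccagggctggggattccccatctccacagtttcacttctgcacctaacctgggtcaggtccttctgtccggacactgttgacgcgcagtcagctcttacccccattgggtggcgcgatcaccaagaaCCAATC
H2-D1, chr17:35263029-35263058, plus strand: agattccaggagCCAATCagcgtcgccgcg
B2m, chr2:122147537-122147686, plus strand: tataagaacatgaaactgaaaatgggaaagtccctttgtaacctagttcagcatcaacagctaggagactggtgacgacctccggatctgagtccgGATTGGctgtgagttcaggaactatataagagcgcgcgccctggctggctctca
H2-Aa, chr17:34287824-34287973, minus strand: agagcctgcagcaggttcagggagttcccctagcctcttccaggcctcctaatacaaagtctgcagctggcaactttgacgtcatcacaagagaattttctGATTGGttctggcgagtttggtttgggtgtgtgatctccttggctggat
H2-Eb1, chr17:34305717-34305866, plus strand: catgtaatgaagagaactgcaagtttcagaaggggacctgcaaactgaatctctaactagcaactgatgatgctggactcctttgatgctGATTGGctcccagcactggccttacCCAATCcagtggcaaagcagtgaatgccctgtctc

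The match lay 53 bases before the start in H2-D1, 54 in B2m, 49 in H2-Aa, 60 and 35 in H2-Eb1, and 6 in H2-K1, for which RefSeq lists 2 starts. By the GENCODE start of H2-K1, which lies further upstream, its match falls inside the first exon of a GENCODE transcript. Of 32851 RefSeq promoter windows of the same length, 10.9% held this core on either strand. No match was found in the windows of Tap1 and Psmb8. By the GENCODE start of Psmb8, its window lies inside the gene, so the bases before that start were not searched. H2-K1 and H2-D1 were identical at 86.4% of 103 aligned bases in these windows, against 53.4% of 133 for H2-Aa and H2-Eb1 and 58.5% of 118 for H2-K1 and H2-Eb1, a pair from different classes. These matches describe letters in the windows and say nothing of binding in the eyecup.

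Of the 10 members, 7 lie on chromosome 17 (GRCm38, GENCODE M21). H2-K1 spans 33996017 to 34000347 and H2-D1 35262730 to 35267499. Tap1 (34187553 to 34197225) and Psmb8 (34197721 to 34201454) are neighbours. H2-Ab1 (34257689 to 34269419), H2-Aa (34282744 to 34287823) and H2-Eb1 (34305867 to 34316674) follow each other. B2m lies on chromosome 2 (122147686 to 122153083), Ciita on chromosome 16 (10480059 to 10528418) and Cd74 on chromosome 18. Some members share sequence with other genes, so that their reads could be split or lost in counting. Of all stretches of 31 bases in its annotated exons, 22.8% of H2-K1 and 26.9% of H2-D1 also occur in another gene, mainly other class I genes. The share was 13.7% for Psmb8, mainly with an antisense gene, Gm20496, and 4.09% for Tap1, which overlaps Psmb9 on the other strand. It was 0 for B2m and at most 2.77% for the class II members, of which Ciita overlaps Dexi on the other strand. The library kit does not mark strand, so reads of overlapping genes cannot be told apart.

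Depth was 10903183 to 20029919 counts per library, and every WT library was deeper than every mutant library. A count of 3 corresponded to 0.150 to 0.282 counts-per-million (CPM) units, which covers counting error only. Every member was well above it, from 34 counts for Ciita in its lowest library to 11916 for B2m in its highest. Tmem135 itself had 64.0 ± 2.99 CPM in WT (SD, n = 4), 75.0 ± 7.30 in FUN025/+ (n = 6) and 88.3 ± 4.57 in FUN025/FUN025 (n = 5), and a count per gene does not read the mutated base. The tissue label was met by RPE markers: the 9 markers summed to 20750 to 26152 CPM, led by Rgr, Ttr and Tyrp1.

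Both classes were expressed in the WT eyecup, with B2m far above the rest and Ciita far below. To compare genes, CPM was divided by exon length in kilobases. In the WT eyecup, B2m was highest at 681 ± 80.9 CPM per kb (SD, n = 4), followed by H2-D1 at 121 ± 18.5, Cd74 at 96.9 ± 17.6 and H2-K1 at 78.8 ± 12.8. The ranges of H2-D1 and Cd74 overlapped, as did those of Cd74 and H2-K1. The class II chains came next, with H2-Eb1 at 46.4 ± 8.34, H2-Ab1 at 30.0 ± 5.36 and H2-Aa at 24.1 ± 3.58 CPM per kb, and the last 2 overlapped. Psmb8 at 6.28 ± 1.32 and Tap1 at 5.23 ± 1.04 overlapped too, and Ciita was lowest at 0.763 ± 0.118 CPM per kb. H2-Ea-ps, the remnant of the class II alpha chain gene that this strain has lost, was looked up after the values were seen and had 0 counts in every library.

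**Figure D1:**
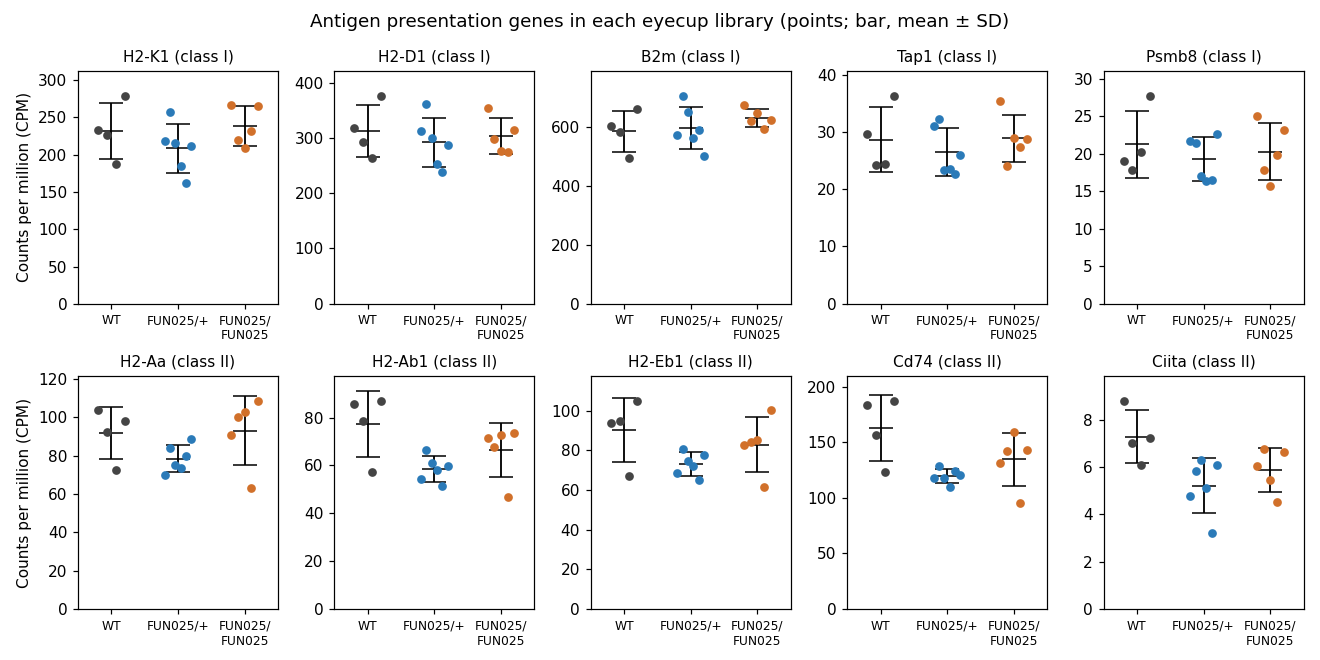
CPM of the 10 genes in each of 15 eyecup libraries (points), by genotype on the horizontal axis, with the mean and SD of each genotype (bars). The groups overlap for every gene, and the 6 FUN025/+ libraries of Cd74 lie between 109.9 and 128 CPM, close to the lowest of the 4 WT libraries.

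Between FUN025/+ and WT eyecups, 1 of the 10 members changed: Cd74 was lower. All 5 class II genes had lower mean levels in FUN025/+ eyecups, by 14.4 to 28.3% of the WT mean, but the other 4 did not pass the adjusted threshold. None of the 5 class I genes passed it. In this comparison 13.7% of the 18979 genes tested passed an adjusted p of 0.05 in edgeR's quasi-likelihood test, and 6.61% of the genes tested passed it and were lower, so 1 call in 10 members is near the background.

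Cd74 had 184, 157, 123 and 187 CPM in the 4 WT libraries. The 6 FUN025/+ libraries ran from 109.9 to 128 CPM with a median of 119, and the 5 FUN025/FUN025 libraries had 132, 142, 159.5, 95.6 and 143 CPM. Of the WT libraries, 3 were above every FUN025/+ library and WT 3 lay within their range. The log2 fold change of FUN025/+ against WT was -0.44 ± 0.13 (SE, 95% interval -0.72 to -0.17, edgeR adjusted p = 0.0352). The call was not stable. It was lost when WT 1, WT 2, WT 4 or any FUN025/+ library other than FUN025/+ 2 was left out, with edgeR adjusted p from 0.0526 to 0.136, although the fold change stayed between -0.55 and -0.36 over the 15 fits that left out 1 library. With muscle and photoreceptor levels as covariates the fold change was -0.21 (edgeR adjusted p = 0.763). The call was also lost without the low-count filter (edgeR adjusted p = 0.075) and with the replicate block (0.117).

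H2-Ab1, the beta chain gene, had 85.8, 78.5, 57.3 and 86.9 CPM in WT, 51.4 to 66.3 CPM with a median of 59.0 in FUN025/+, and 71.5, 67.8, 72.7, 46.8 and 73.4 CPM in FUN025/FUN025. Again 3 of the 4 WT libraries were above every FUN025/+ library. The fold change of FUN025/+ against WT was -0.40 ± 0.13 on the log2 scale (SE), with an adjusted p of 0.0582 in edgeR. It passed in 2 of 15 fits that left out 1 library: without WT 3 it was -0.51 (edgeR adjusted p = 0.0104), and without FUN025/FUN025 4, a library of neither genotype compared, -0.39 (adjusted p = 0.0144). Over the 15 fits it ran from -0.51 to -0.33 with adjusted p up to 0.193, the latter without WT 4.

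Ciita had the largest difference of the members and the fewest counts. Its levels were 8.79, 6.99, 6.10 and 7.23 CPM in WT, 3.20 to 6.29 CPM with a median of 5.47 in FUN025/+, and 6.04, 6.77, 5.46, 4.52 and 6.62 CPM in FUN025/FUN025. WT and FUN025/+ overlapped at WT 3 alone. The log2 fold change was -0.47 ± 0.16 (SE, edgeR adjusted p = 0.0615). The other class II chains had smaller differences: H2-Eb1 differed by -0.30 ± 0.13 (adjusted p = 0.129) and H2-Aa by -0.22 ± 0.13 (adjusted p = 0.29) on the log2 scale in the same fit. H2-Eb1 passed in 1 of 15 fits, without WT 3 (-0.41, edgeR adjusted p = 0.0233), and was -0.21 (adjusted p = 0.379) without WT 4.

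Class I levels lay closer together. H2-K1 had 234, 226, 188 and 279 CPM in WT, 162 to 258 CPM with a median of 214 in FUN025/+, and 266, 219.9, 209, 232 and 265 CPM in FUN025/FUN025. The FUN025/+ range enclosed 3 of the 4 WT libraries. B2m, the most abundant member, had 602, 583, 494 and 663 CPM in WT, 501 to 706 CPM with a median of 580.0 in FUN025/+, and 673, 619.7, 648, 593 and 622 CPM in FUN025/FUN025. H2-D1 lay between 238 and 376 CPM over all libraries, Tap1 between 22.7 and 36.3 and Psmb8 between 15.7 and 27.7, with overlap between all genotypes. The log2 fold changes of FUN025/+ against WT ran from -0.15 for H2-K1 to 0.03 for B2m, and the adjusted p was at least 0.45 for each of the 5 in edgeR. The intervals of this fit were -0.42 to 0.11 for H2-K1, -0.35 to 0.15 for H2-D1, -0.15 to 0.21 for B2m, -0.40 to 0.18 for Tap1 and -0.45 to 0.18 for Psmb8 (log2, 95%). They hold for this fit alone. Over 10 alternatives, H2-K1, H2-D1, Tap1 and Psmb8 went as low as -0.60, -0.53, -0.48 and -0.68.

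Class I and class II were set side by side in FUN025/+ against WT. The median log2 fold change was -0.11 for class I, with 4 of 5 below 0, and -0.40 for class II, with 5 of 5 below 0. The median over all genes tested was -0.0023, with 50.5% below 0. An unadjusted p under 0.05 was reached by 0 of 5 class I and 4 of 5 class II genes, against 28.8% of all genes tested, and by DESeq2 and limma-voom no class I gene had an adjusted p under 0.05 either. DESeq2 called 3 class II genes (Cd74, H2-Ab1 and Ciita) and limma-voom 2 (Cd74 and Ciita), beside at most 2983 genes called in any of 10 alternatives. The class II genes deviate together across mice, so their count is not that of 5 separate observations. No member had groups that did not overlap, which held for 10.9% of all genes. The order of the classes did not hold in every fit: with muscle and photoreceptor levels as covariates the medians were -0.53 for class I and -0.28 for class II, and the cause was not tested. Errors were larger with these covariates, for example an SE of 0.27 against 0.13 for Cd74 and 0.17 against 0.086 for B2m.

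**Figure D2:**
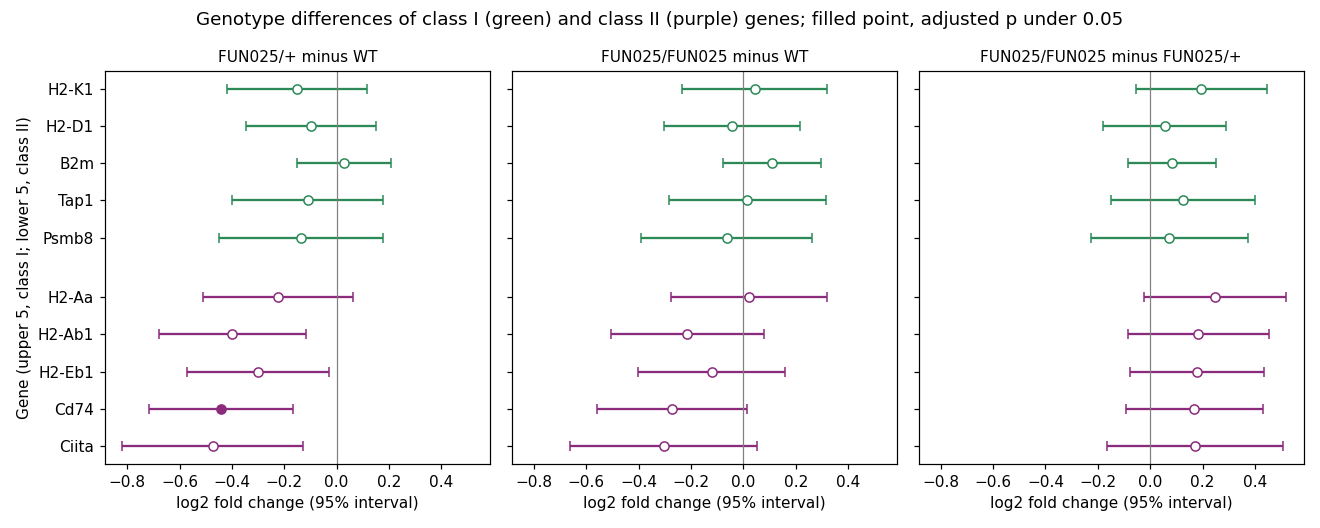
Log2 fold change with its 95% interval for the 10 genes in the 3 genotype comparisons, class I in green and class II in purple; the filled point has an edgeR adjusted p under 0.05. In FUN025/+ against WT the class I intervals all include 0, as does that of H2-Aa in class II. The class II points lie lower, from -0.47 to -0.22, with Cd74 the 1 filled point.

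In FUN025/FUN025 against WT eyecups, no member passed the test. Cd74 differed by -0.27 ± 0.13 on the log2 scale (SE, edgeR adjusted p = 0.194), Ciita by -0.30 ± 0.17 (adjusted p = 0.25) and H2-Ab1 by -0.21 ± 0.14 (adjusted p = 0.328), while H2-Aa stood at 0.02 ± 0.14 (adjusted p = 0.937). The class II median was -0.21 and the class I median 0.015, against -0.0071 over all genes. With the muscle and photoreceptor covariates this order turned round as well, at -0.12 for class II and -0.32 for class I. Of all genes tested, 14.0% passed the adjusted threshold and 28.6% an unadjusted p of 0.05, whereas 0 of 10 members passed either in edgeR, and 0 passed the adjusted threshold in DESeq2 and limma-voom. Without FUN025/FUN025 4, which had the lowest level of that genotype for all 5 class II genes, the class II median was -0.10. Both comparisons with WT use the same 4 WT libraries.

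FUN025/FUN025 and FUN025/+ eyecups were compared directly as well. All 10 members had a fold change above 0, with medians of 0.081 for class I and 0.18 for class II, and the largest was H2-Aa at 0.25 ± 0.13 (SE, log2, edgeR adjusted p = 0.887). None passed the adjusted threshold, which 0.522% of all genes passed, or an unadjusted p of 0.05, which 6.23% passed in edgeR, and DESeq2 and limma-voom also called 0 members. Without FUN025/FUN025 4 the class II median was 0.27. For Cd74, called lower in FUN025/+ and not in FUN025/FUN025, the direct difference between the mutant genotypes was 0.17 ± 0.12 (SE, 95% interval -0.09 to 0.43, edgeR adjusted p rounding to 1.00), so its effect was not shown to differ between them.

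The balance of the classes was also read within each library, which needs no scaling between libraries. The summed class II counts per 100 summed class I counts were 36.3 ± 2.89 in WT (SD, n = 4, range 32.9 to 39.6), 29.5 ± 2.80 in FUN025/+ (n = 6, range 26.5 to 33.7) and 31.3 ± 5.21 in FUN025/FUN025 (n = 5, range 23.7 to 36.2). FUN025/+ and WT overlapped at WT 3 and FUN025/+ 6, and FUN025/FUN025 spanned the whole FUN025/+ range. This ratio is weighted towards B2m and Cd74. Without both genes it was 44.9 ± 4.36, 39.9 ± 4.68 and 42.2 ± 7.62, and the groups overlapped more widely, with WT from 40.9 to 48.7 and FUN025/+ from 33.8 to 45.3.

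**Figure D3:**
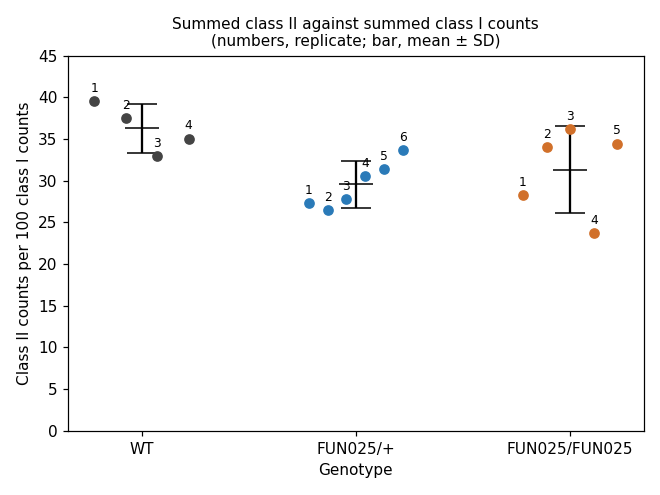
Summed counts of the 5 class II genes per 100 summed counts of the 5 class I genes in each library (points, with replicate numbers), by genotype, with mean and SD (bars). WT lies between 32.9 and 39.6, FUN025/+ between 26.5 and 33.7 and FUN025/FUN025 between 23.7 and 36.2, with FUN025/FUN025 4 the lowest of all libraries.

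Within a class, several genes often had their highest or lowest level in the same mouse. WT 4 had the highest WT level of all 5 class I genes and of 3 class II genes, and WT 3 the lowest WT level of all 5 class II and 3 class I genes. Among FUN025/FUN025 mice, FUN025/FUN025 1 was the highest for all 5 class I genes and for 0 class II genes. It still had 4 class II genes above their mean over all libraries. FUN025/FUN025 4 was the lowest of these mice for all 5 class II genes and for 2 class I genes. In FUN025/+, FUN025/+ 5 was the lowest for 3 genes of each class, whereas FUN025/+ 6 was the lowest for B2m and the highest for Psmb8, which had the weakest correlation of the class I pairs (r = 0.15, 15 mice). The median coefficient of variation of class II genes was 8.94% in FUN025/+ against 17.8% in WT and 16.9% in FUN025/FUN025, and that of class I genes was 15.2, 16.2 and 11.0%.

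**Figure D4:**
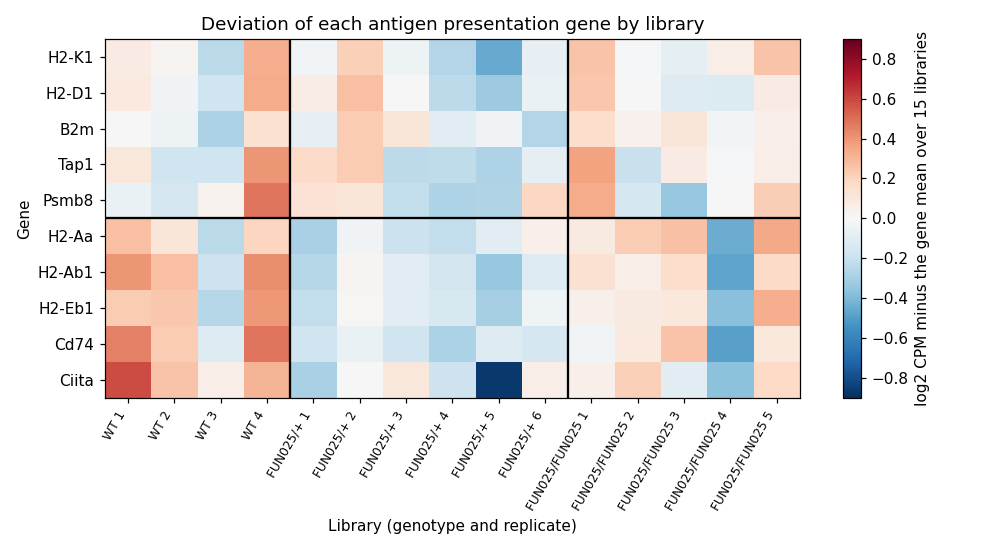
Difference of each log2 CPM from the mean of its gene over all 15 libraries (colour, red above and blue below), genes in rows with class I on top and libraries in columns by genotype. WT 4 is red across the 10 genes, and FUN025/FUN025 4 is blue across class II with class I near 0 (median -0.44 against -0.013).

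Deviations from the genotype mean were correlated over the 15 mice for 7 pairs of members, with permutation within genotype (100000 resamples, two-sided) and Benjamini-Hochberg adjustment over the 7. The heavy chains H2-K1 and H2-D1 had Pearson r = 0.95 and Spearman coefficient = 0.97 (permutation p = 5e-05 and 3e-05, adjusted 0.00035 and 0.00021), and r was 0.93 without the 2 mice farthest from the H2-K1 median. The part of reads shared between these similar genes in this value was not tested. H2-K1 with Psmb8 had r = 0.74 and Spearman coefficient = 0.74 (permutation p = 0.00459 and 0.00521, adjusted 0.00982 and 0.0122), and 0.82 without 2 mice. H2-K1 with B2m had r = 0.61 and Spearman coefficient = 0.54 (permutation p = 0.0441 and 0.0594, adjusted 0.0618 and 0.0832), which did not pass, and r was 0.58 without 2 mice.

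Among class II genes, H2-Ab1 with H2-Aa had r = 0.88 and Spearman coefficient = 0.68 (permutation p = 0.00561 and 0.0114, adjusted 0.00982 and 0.02). H2-Ab1 with Cd74 had r = 0.89 and Spearman coefficient = 0.78 (permutation p = 0.00472 and 0.00423, adjusted 0.00982 and 0.0122). These rest in part on WT 3 and FUN025/FUN025 4, without which r was 0.60 and 0.57. Cd74 with its transactivator gene Ciita had r = 0.42 and Spearman coefficient = 0.31 (permutation p = 0.0729 and 0.254, adjusted 0.085 and 0.296), and r was 0.056 without the same 2 mice. Across classes, H2-K1 with Cd74 had r = 0.33 and Spearman coefficient = 0.26 (permutation p = 0.248 and 0.378, adjusted 0.248 and 0.378), with r = 0.21 without 2 mice. As a description over all pairs of members, the median r was 0.74 for 10 pairs within class I, 0.86 for 10 pairs within class II and 0.38 for 25 pairs between classes. The points of each pair share a library and its depth.

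The genes most like H2-K1 over the 15 mice, of 17587 genes with a mean CPM of at least 1, were H2-Q7 (r = 0.95), H2-Q4 (0.95), H2-D1 (0.95), the antisense gene Gm11131 (0.94) and H2-Q6 (0.89). Of the other class I members, Tap1 stood 55th, Psmb8 103rd and B2m 544th. The genes most like Cd74 were H2-Aa (r = 0.91), H2-Ab1 (0.89), Bivm (0.88), Zdhhc16 (0.87) and the noncoding RNA AW112010 (0.86). H2-Eb1 stood 11th and Ciita 1663rd. These r are ranks of likeness across shared libraries and carry no test.

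The rest of the class I pathway was read from a list of 19 genes, all tested. In FUN025/+ against WT, 2 were lower and 1 higher, beside 13.7% of all genes called, with a median log2 fold change of -0.080. Tapbp, which encodes tapasin and tethers class I to the transporter, fell from 152 ± 7.25 CPM (SD, n = 4) to 135 ± 4.19 (n = 6), a log2 fold change of -0.16 ± 0.044 (SE, edgeR adjusted p = 0.0189), with no overlap between groups. Psme2, a subunit of the proteasome activator PA28, was lower at 31.4 ± 1.48 against 36.8 ± 2.67 CPM, and Canx, the chaperone calnexin, was higher with means of 459 against 409 CPM (edgeR adjusted p = 0.0436 and 0.0451). Tapbp kept its call in 13 of 15 fits that left out 1 library, Psme2 in 5 and Canx in 6. With muscle and photoreceptor levels as covariates the fold changes were larger, at -0.22, -0.40 and 0.21 on the log2 scale, but all 3 calls were lost (edgeR adjusted p = 0.225, 0.164 and 0.34). Canx also lost its call without the low-count filter (0.16, adjusted p = 0.0701) and with only these genotypes in the fit (0.17, adjusted p = 0.0732). In FUN025/FUN025 against WT, Erap1, which trims peptides in the endoplasmic reticulum, was higher at 88.2 ± 3.57 against 79.1 ± 4.15 CPM (edgeR adjusted p = 0.0477, in 6 of 15 fits), and the list median was 0.037. Its log2 fold change was 0.16, and its call was lost at 0.16 without the low-count filter (edgeR adjusted p = 0.0934), at 0.16 with only the genotypes compared in the fit (adjusted p = 0.0565) and at 0.26 with the covariates (adjusted p = 0.0834). The most abundant genes of the list were Canx and the chaperone Calr, which had a log2 fold change of -0.080 in FUN025/+ (edgeR adjusted p = 0.352). No gene of the list passed between the mutant genotypes. Nlrc5, the class I counterpart of Ciita, is named here after its values were seen: it had 13.2 ± 4.27 CPM in WT, 9.69 ± 2.72 in FUN025/+ and 9.28 ± 1.53 in FUN025/FUN025, with adjusted p of 0.195 and 0.156 against WT in edgeR.

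Of 21 further class II pathway genes, 19 were tested, and H2-Oa and H2-Eb2 were too low. In FUN025/+ against WT only Creb1 passed the threshold in edgeR, and it was higher, while Creb1 and Rfxap passed in FUN025/FUN025, beside 13.7% and 14.0% of all genes called. Creb1 encodes a factor that binds the X2 box of class II promoters and acts on many other genes. It had 60.7 ± 3.11 CPM in WT, 68.4 ± 2.07 in FUN025/+ and 68.1 ± 1.52 in FUN025/FUN025, with log2 fold changes of 0.17 and 0.17 against WT (edgeR adjusted p = 0.0126 and 0.0193). Rfxap, a subunit of the RFX complex that binds the X box, was lower in FUN025/FUN025 at 18.5 ± 1.58 against 22.4 ± 1.42 CPM (edgeR adjusted p = 0.0207), and stood at 19.3 ± 1.23 CPM in FUN025/+ (adjusted p = 0.0555). Rfxap kept its call in 11 of 15 fits that left out 1 library, and lost it without WT 3, WT 4, FUN025/FUN025 1 or FUN025/FUN025 2 (adjusted p up to 0.0817). With the covariates the Creb1 fold changes were 0.19 and 0.19 and the calls were lost (edgeR adjusted p = 0.252 in FUN025/+ and 0.153 in FUN025/FUN025). Without the low-count filter they were 0.17 and 0.17, and the calls were lost too (adjusted p = 0.0555 and 0.0704), as was the FUN025/FUN025 call without WT 4 (0.0578). The list medians were -0.029 and 0.028 against WT, beside -0.40 and -0.21 for the class II members. The lysosomal proteases Ctsl and Lgmn, its most abundant genes, had log2 fold changes of 0.035 and -0.056 in FUN025/+ (edgeR adjusted p = 0.617 and 0.547). No gene passed between the mutant genotypes.

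Interferon gamma induces both classes, and 21 of 22 genes of its signalling list were tested. Ifng itself had at most 2 counts in any library, under the floor. In FUN025/+ against WT, 2 of the 21 genes were lower in edgeR, beside 13.7% of all genes called: Socs3, a feedback inhibitor of cytokine receptors, fell from 16.5 ± 2.04 to 11.2 ± 1.32 CPM (log2 fold change -0.55 ± 0.12, SE, adjusted p = 0.00433) with no overlap. Irf9, a partner of the STAT proteins, fell from 66.4 ± 5.62 to 53.8 ± 5.69 CPM (log2 fold change -0.30 ± 0.075, edgeR adjusted p = 0.0125). With the same covariates the fold changes were larger and the calls were lost, at -0.82 for Socs3 (edgeR adjusted p = 0.0878) and -0.49 for Irf9 (adjusted p = 0.113). The Irf9 call was also lost without WT 4 (adjusted p = 0.0693). Fold changes were below 0 for 20 of the 21 genes with a median of -0.13, against 50.5% below 0 over all genes. Jak1, the receptor kinase and the most abundant of the list, was the exception at 0.081, and Stat2 stood at -0.18 (edgeR adjusted p = 0.234 and 0.119). The 21 genes belong to 1 signalling list and were read in the same libraries, so they are not 21 separate observations. In FUN025/FUN025 against WT no gene of the list passed in edgeR and the median was -0.0093, and between the mutant genotypes none passed and the median was 0.11. Psmb8 replaces a constitutive proteasome subunit, and of the 7 constitutive beta subunit genes none passed in any comparison, with list medians of 0.046, 0.059 and 0.027; the most abundant, Psmb4 and Psmb1, had log2 fold changes of 0.042 and 0.085 in FUN025/+ (edgeR adjusted p = 0.714 and 0.428).

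**Figure D5:**
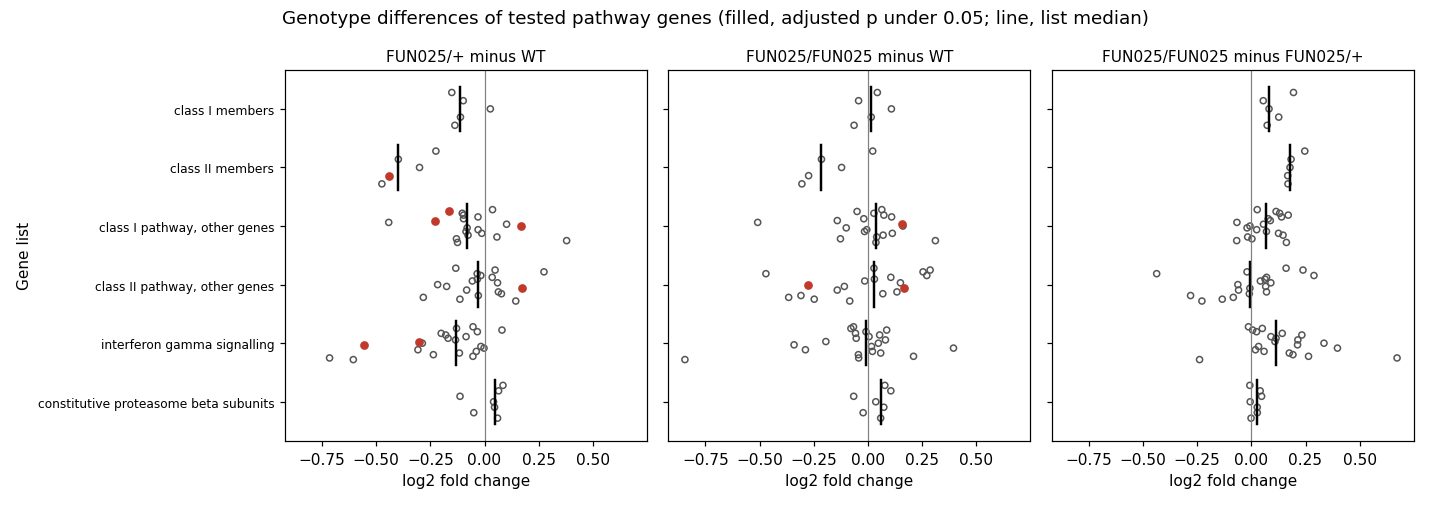
Log2 fold changes of the tested genes of each list in the 3 comparisons (points; filled, edgeR adjusted p under 0.05; line, list median). The class II members sit at a median of -0.40 in FUN025/+ against WT, while the 19 other class II pathway genes centre near 0 (-0.029).

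Bulk eyecup RNA holds several cell types, and fewer class II cells cannot be told apart from less class II RNA per cell. The 13 macrophage markers, led by Lyz2, Csf1r and C1qa, summed to 903 to 1255 CPM in WT, 847 to 1236 in FUN025/+ and 982 to 1115 in FUN025/FUN025. None passed in FUN025/+ against WT, where 7 of 13 were below 0, and in FUN025/FUN025, where 11 of 13 were above 0 with a median log2 fold change of 0.12, Cd68 alone was higher in edgeR, beside 14.0% of all genes called. The 9 dendritic cell markers, led by Zbtb46, Itgax and Clec10a, summed to 42.0 to 48.7 CPM in WT, 34.5 to 44.0 in FUN025/+ and 35.8 to 42.1 in FUN025/FUN025. Of 8 tested, 7 were below 0 in FUN025/+ with a median log2 fold change of -0.17 and none passed, and Zbtb46, which endothelial cells express too, was the 1 gene called in FUN025/FUN025 in edgeR, where it was lower and 5 of 8 were below 0 with a median of -0.090. The 9 T and NK cell markers, led by Cd4, Nkg7 and Gzmb, summed to 8.29 to 19.3 CPM over all libraries. Only 2 were tested, with 2 above 0 in FUN025/+ and 1 in FUN025/FUN025 against WT, and 0 were called. Over 5 B cell markers, which are part of the list, the sums were 2.31 to 5.50 CPM in WT, 3.53 to 6.06 in FUN025/+ and 2.81 to 4.93 in FUN025/FUN025. Of the 4 tested, 4 were above 0 in FUN025/+ and 3 in FUN025/FUN025 against WT, and none passed in edgeR. FUN025/FUN025 4, lowest in class II, was also the lowest of its genotype in the macrophage, dendritic cell, T and NK cell, endothelial and RPE sums, at 982, 35.8, 9.29, 591 and 20750 CPM. No marker was at 0 in all libraries of a genotype. The part of these markers in the class II values was not tested.

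Other tissue differed between the groups as well. Striated muscle markers, led by Myh4, Ckm and Acta1, summed to 2601 to 5659 CPM in WT, 1438 to 4285 in FUN025/+ and 2471 to 3310 in FUN025/FUN025, and all 6 were below 0 in both mutants against WT, with median log2 fold changes of -0.64 and -0.52. Acta1 alone was called, lower in both, beside 13.7% and 14.0% of all genes called in edgeR. The 6 photoreceptor markers reported here, which are part of the list and do not give its whole level, summed to 103 to 994 CPM in WT (highest in WT 2), 35.7 to 280.2 in FUN025/+ and 42.9 to 177 in FUN025/FUN025. All 6 were below 0 against WT, with median log2 fold changes of -1.82 and -1.91, and none passed in edgeR. Endothelial markers, led by Plvap, Kdr and Emcn, summed to 839 to 976, 649 to 912 and 591 to 748 CPM, with 2 of 6 lower in FUN025/+ and 4 of 6 in FUN025/FUN025 in edgeR, beside 13.7% and 14.0% of all genes called in either direction. With muscle and photoreceptor levels as covariates, Cd74 in FUN025/+ against WT was -0.21 ± 0.27 (SE, edgeR adjusted p = 0.763), which ended its call. With the Xist level as covariate, which follows sex, Cd74 was -0.43 (adjusted p = 0.0449).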

How the data were processed

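Posterior eyecups of 15 mice were sequenced with 1 library per mouse, and labels say that tissue was collected and pooled from individual mice. The authors deposited raw read counts per Ensembl gene for each library, without normalization. The submitters' processing notes name GRCm38, FastQC 0.11.8, Trimmomatic 0.39, HISAT2 2.1.0, SAMtools and featureCounts 2.0.0, and the strand setting and annotation release are not given in the sources used here. Libraries of the same genotype differed by more than sampling noise (chi-square per gene 3.06 to 17.2), so none was counted as a repeat.

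Of the listed genes, 55240 were found in GENCODE M21. The 15% of genes with the lowest variance and then genes with low counts (filterByExpr) were removed, which left 18979. Counts were scaled by TMM and tested with edgeR 4.0.16 (quasi-likelihood, robust), with all 15 libraries in 1 fit, Benjamini-Hochberg adjustment over all genes tested and a threshold of 0.05. Intervals are at 95%. CPM used TMM-scaled totals, and log2 CPM for correlations a prior count of 2. Other tools were limma 3.58.1, DESeq2 1.42.0, R 4.3.3, Python 3.11.15, numpy 2.4.6, pandas 2.3.3, scipy 1.17.1, Biopython 1.88 and matplotlib 3.10.9. The fit was tested on simulated data. Promoters came from RefSeq (GRCm38.p6), and Ciita, Cd74 and H2-Ab1 had no entry in the table used.

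Named genes are the 10 members; from each pathway list the genes with an adjusted p under 0.05 (at most 4 per comparison) and the 2 of highest mean CPM; from each marker list the 3 of highest mean CPM; and the 5 genes most like H2-K1 and Cd74. Outside this rule Cd68, Ifng, H2-Oa, H2-Eb2 and Nlrc5, and the genes in the closing observations, were named after their values were seen. The members and lists were chosen with earlier results of these data known. Alternatives were other scaling, tools and filters, fits of 2 genotypes, the replicate block, covariates and leaving out each library. The B cell and photoreceptor marker values leave out list genes that are not reported here.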

Additional observations from a re-analysis of the deposited data

Results flagged for a closer look

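Every group of 4 to 6 libraries was examined for a library far from the others, for the 10 members and the ratio of the classes, which made 33 groups. One stood apart, and chance flags about 1 group in 20. The H2-Ab1 level of FUN025/FUN025 4 was 46.8 CPM, while the other 4 FUN025/FUN025 libraries lay between 67.8 and 73.4 CPM. The gap to the nearest library was 0.790 of the range of the group. The same library was the lowest of its genotype for H2-Aa, H2-Eb1, Cd74 and Ciita, without standing apart by this measure. Its H2-K1 level was 232 CPM, inside the range of the other libraries of its genotype.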

How the results depend on the processing

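Over 10 alternatives to the main test and 3 comparisons, 288 of 300 values of the 10 members kept their direction and their side of the threshold. Cd74 in FUN025/+ against WT stayed at -0.45 to -0.21 on the log2 scale and lost its call without the low-count filter (adjusted p = 0.075) and with the covariates (adjusted p = 0.763). The number of members called there was 3 with DESeq2 (H2-Ab1 and Ciita joined), 2 with limma-voom (Ciita joined), 2 with only the genotypes compared in the fit (H2-Ab1 joined) and 0 without the low-count filter. Of all genes, 320 to 2983 were called in that comparison over the 10 alternatives, against 2600 in the main fit. With muscle and photoreceptor levels as covariates, 0 members and 320 genes were called in FUN025/+ against WT and 945 genes in FUN025/FUN025 against WT, the class I median moved to -0.53 and -0.32, and signs turned for B2m in FUN025/+ (-0.14) and for H2-K1 (-0.32), B2m (-0.029) and Tap1 (-0.29) in FUN025/FUN025. DESeq2 called 171 genes between the mutant genotypes. Without Cd74 and B2m the ratio was 44.9, 39.9 and 42.2. The cause of these changes was not tested.

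Same-numbered mice of the genotypes are different animals and share only a number: their deviations correlated at -0.38 to 0.13, and over the 3 comparisons, which share libraries, 2 of 26 tries found a library that correlated best with its own number. The replicate block was fitted to 2 genotypes at a time, without the libraries that had no same-numbered partner. This left 8 libraries in each comparison with WT and 10 between the mutant genotypes. The part of the dropped libraries in the changes below was not tested. With the replicate block, 0 members and 630 genes were called in FUN025/+ against WT (Cd74 adjusted p = 0.117), 1248 genes in FUN025/FUN025 against WT and 151 between the mutant genotypes, and H2-Aa in FUN025/FUN025 was -0.045. The calls of Tapbp, Psme2, Canx, Creb1, Irf9 and Socs3 in FUN025/+ were lost too (adjusted p from 0.0805 to 0.216) at log2 fold changes of -0.15, -0.21, 0.18, 0.18, -0.26 and -0.47, and those of Erap1, Rfxap and Creb1 in FUN025/FUN025 (0.0628 to 0.0997) at 0.18, -0.31 and 0.17.

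With 1 library left out, 0 to 3 members and 1433 to 2719 genes were called in FUN025/+ against WT, 1519 to 2697 genes in FUN025/FUN025 against WT and 68 to 106 between the mutant genotypes. The log2 fold changes that changed sign ranged, in FUN025/+ against WT, from -0.17 to 0.010 for H2-D1, -0.042 to 0.098 for B2m, -0.18 to 0.030 for Tap1 and -0.20 to 0.024 for Psmb8, and the class I median from -0.17 to 0.024. In FUN025/FUN025 against WT they ranged from -0.035 to 0.15 for H2-K1, -0.11 to 0.064 for H2-D1, -0.061 to 0.16 for Tap1, -0.14 to 0.096 for Psmb8 and -0.066 to 0.14 for H2-Aa, and the class I median from -0.061 to 0.15. Between the mutant genotypes H2-D1 ranged from -0.0040 to 0.12 and Psmb8 from -0.014 to 0.15. The class II medians kept their sign, at -0.51 to -0.33, -0.32 to -0.10 and 0.14 to 0.27, and the ratio was 35.2 to 37.4, 28.7 to 30.2 and 30.1 to 33.2.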

Other observations

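The genes named here were chosen after their values were seen, and none passed the threshold in edgeR. In FUN025/FUN025 eyecups, where 4 of the 5 class II members had fold changes below 0 against WT, some other genes of the pathways had values above 0, while others, such as H2-Ob (-0.47) and Lgmn (-0.015), were below 0 on the log2 scale. H2-DMb1, a chain of the molecule that exchanges the invariant chain peptide, had 17.4 ± 1.82 CPM (SD, n = 5) against 14.3 ± 1.23 in WT (n = 4; log2 fold change 0.29, edgeR adjusted p = 0.0598). Ctss, the protease that degrades the invariant chain, had 112 ± 7.43 against 93.0 ± 19.1 CPM (0.27 on the log2 scale, edgeR adjusted p = 0.196). H2-DMa, the partner chain of H2-DMb1, stood at 0.03 (adjusted p = 0.867). The other subunits of the immunoproteasome, Psmb9 and Psmb10, had log2 fold changes of 0.07 and 0.11 (adjusted p = 0.848 and 0.483), beside -0.06 for Psmb8.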
